A study of Homo sapiens with 11 samples.

Results

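The late step of tissue formation was described as day 6 against day 3 in engineered myometrial microtissues, small three-dimensional tissues that the study grew to measure contraction driven by oxytocin. The comparison took the 4 libraries labelled day 6 and the 4 labelled day 3, which are 8 of the 11 libraries of the series; the other 3 are from day 1 and entered the fit and the paragraphs on the earlier days. Its members are the 18245 genes that passed the filter on low counts. All tissues were made from hTERT-HM, human myometrial cells that were immortalised by a telomerase transgene, and all are labelled WT with no agent other than the day of formation. Every library therefore comes from 1 line, and the labels do not say whether replicates are separate tissues, pools of tissues or separate cultures. A p-value here thus weighs the spread among these libraries alone, and that spread may be technical.

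The myometrium is the smooth muscle layer of the uterus. Its cells shorten when calcium and calmodulin switch on myosin light chain kinase, and oxytocin, endothelin and prostaglandin receptors feed that switch through G proteins and calcium stores. Smooth muscle cells can also divide, secrete collagen and produce inflammatory signals. Genes of the contractile apparatus are driven largely by serum response factor with its coactivator myocardin, whereas cell cycle, NF-kB and protein folding genes each have their own transcription factors.

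Values are given in CPM, counts per 1000000 counts scaled with TMM factors, which are not corrected for gene length. The 8 libraries held 28.07 to 32.29 M counts, and 3 counts, the most that a reading of 0 leaves possible, correspond to 0.0909 to 0.115 CPM on that scale. The day 6 replicates differed more among themselves than the day 3 replicates: the median coefficient of variation over 9052 genes of at least 10 CPM was 7.03% on day 6 and 4.89% on day 3. The first principal component of all 11 libraries held 51.1% of the variance and placed the 4 day 6 libraries between 40.75 and 48.8, against -33.27 to -29.71 for the 4 day 3 libraries. On the second component day 6 replicate 3 stood at 9.11, against -8.29 to -5.25 for the other 3 day 6 libraries. The 10 genes with most counts took 7.58% ± 0.308 of the day 6 counts, against 10.2% ± 0.161 of the day 3 counts (SD, n = 4 each). The two-sided exact permutation p was 0.0286, which 70 assignments cannot go below, and 0.0429 after Benjamini-Hochberg adjustment over 3 measures. Protein-coding genes at 1 CPM or more numbered 11904.5 ± 29.7 on day 6 and 11771 ± 8.26 on day 3, with the same exact permutation p of 0.0286. Mitochondrial messenger RNA took 2.88% ± 0.661 of the day 6 counts and 2.49% ± 0.202 of the day 3 counts, with overlap (exact permutation p = 0.371).

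The labelled cell type was checked against marker genes. Of 8 defining smooth muscle genes 7 were measured (ACTA2, TAGLN, CNN1, MYH11, MYLK, ACTG2 and LMOD1), and DES, desmin, had at most 2 counts in any of the 8 libraries. Of 15 leukocyte markers 3 passed the filter, with a summed level of all 15 of 13.3 to 22.5 CPM on day 6 and 11.3 to 15 CPM on day 3; PTPRC, the pan-leukocyte marker, had at most 1 count. Endothelial markers passed in 8 of 11 cases and summed to 66.7 to 70.4 CPM on day 6 and 83.2 to 89.2 CPM on day 3, with CDH5 at no more than 8 counts and CLDN5 at no more than 2. Epithelial markers passed in 7 of 12 cases and summed to 45.2 to 50.3 CPM on day 6 and 68.5 to 74.4 CPM on day 3, with EPCAM at no more than 2 counts and CDH1 at no more than 3. Skeletal and cardiac muscle markers passed in 2 of 15 cases and summed to 2.61 to 4.76 CPM on day 6 and 2.73 to 3.23 CPM on day 3. A low count in these files does not show that a gene is silent, since EEF1G, an elongation factor subunit that every cell uses, was listed at 0 in all 8 libraries, and MALAT1, an abundant nuclear RNA, had at most 3 counts. The endothelial and epithelial sums were lower on day 6 with no overlap, while the leukocyte and the skeletal and cardiac sums overlapped between the days. Of 12 tested markers of uterine stroma and fibroblasts 3 rose and 4 fell (58.3% called, against 49.9% of all genes). The list summed to 2356 to 2658 CPM on day 6 and 2829 to 3033 CPM on day 3, with no overlap. Its median was -0.13, and it was above 0 with library totals. The labels name hTERT-HM cells and no endothelial, epithelial, stromal or leukocyte cells. The part of these markers in the results below was not tested. In bulk tissue, fewer cells of a type and less RNA per cell cannot be told apart.

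About as many genes rose as fell under TMM scaling. Of 18245 genes, 9102 were called at a Benjamini-Hochberg adjusted p under 0.05 (49.9%), of which 4825 were higher on day 6 (26.4%) and 4277 lower (23.4%). With library totals in place of TMM factors, which moved the median log2 fold change of all genes by 0.184, the calls were 7885 higher and 2239 lower. Most changes were small: 50.7% of the called genes had an absolute log2 fold change under 0.5, while 1111 rose and 536 fell by more than 1 on that scale and 118 rose and 93 fell by more than 2. For 8023 genes (44.0%) the ranges of the 2 days did not overlap. Among the called genes alone this held for 83.5%, so a called gene without overlap is the usual case. A gene list whose called share is near or below 49.9% is described by its values alone, and that share stands beside its count.

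Direction varied with the level of the gene. Among 102 genes averaging at least 1000 CPM over the 8 libraries 63 fell and 17 rose, with a median log2 fold change of -0.39. Among 1853 genes of 100 to 1000 CPM 920 fell and 341 rose, with a median of -0.147. Library totals moved the median of all genes up by 0.184, and the counts by level were not repeated with them. The order turned below 10 CPM, where 1692 of 4988 genes of 1 to 10 CPM rose and 878 fell. Of 4205 genes under 1 CPM 812 rose and 377 fell (19.3% and 8.97%, against 26.4% and 23.4% of all genes). Of 3288 long noncoding RNA genes 886 rose and 368 fell, with a median of 0.24, whereas of 13275 protein-coding genes 3813 rose and 3535 fell. Processed pseudogenes, whose reads can come from their parent genes, rose in 89 and fell in 331 of 1403 cases. Long noncoding RNA genes and processed pseudogenes were both called less often than all genes (49.9%), so only their direction is described.

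**Figure D1:**
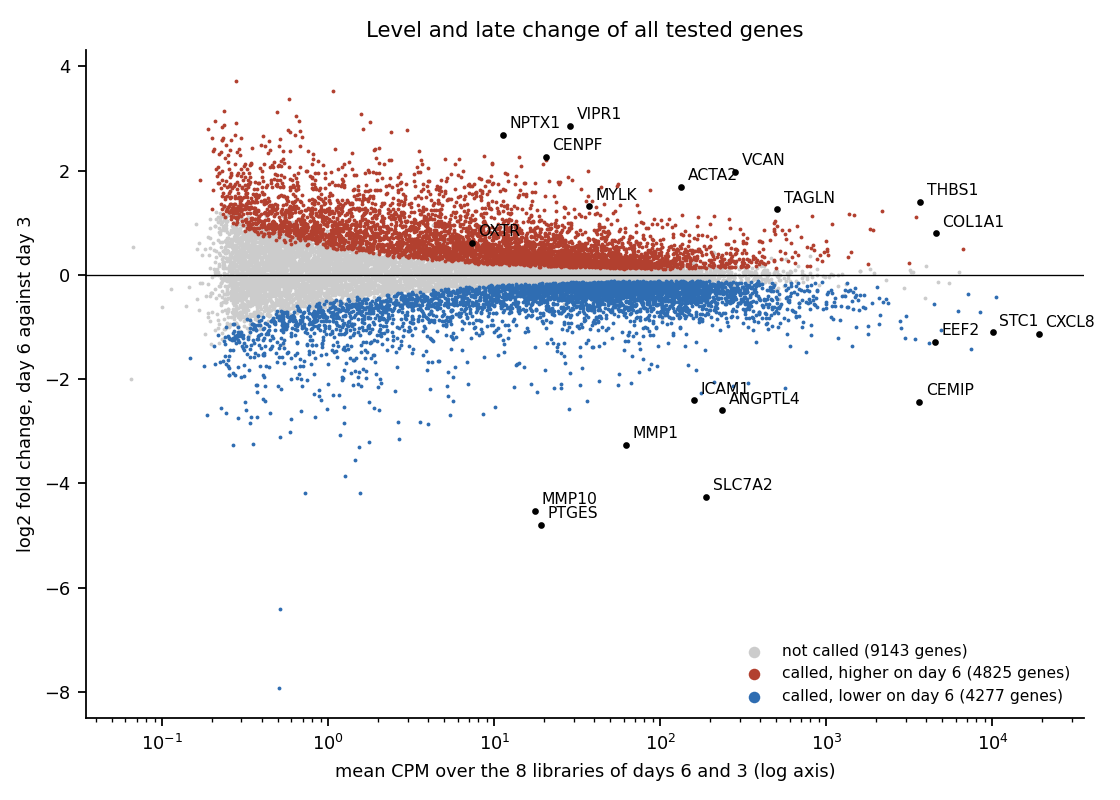
Mean CPM over the 8 libraries (horizontal, log axis) against the log2 fold change of day 6 against day 3 (vertical) for the 18245 tested genes. Red points are the 4825 genes called higher on day 6, blue points the 4277 called lower, grey points the rest, and named genes are in black; the largest falls among the named genes are PTGES, MMP10 and SLC7A2.

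The largest rises among protein-coding genes of at least 5 CPM with no overlap between the days numbered 12 by rule, and 5 of them are mitosis genes. VIPR1, a receptor for vasoactive intestinal peptide, which relaxes smooth muscle, was at 43.05, 53.4, 66.4 and 37.8 CPM in the day 6 libraries, against 6.95, 8.63, 6.22 and 5.86 CPM in the day 3 libraries (log2 fold change 2.86, SE 0.294, adjusted p = 4.54e-05, edgeR). NPTX1, a secreted neuronal pentraxin, was at 17.96, 24.4, 18.8 and 16.5 CPM in the day 6 libraries, against 2.48, 3.15, 3.62 and 2.8 CPM in the day 3 libraries (log2 fold change 2.69, SE 0.144, adjusted p = 3.08e-10, edgeR). All 4 day 6 libraries lay above all 4 day 3 libraries for both genes, as the rule for these 12 required. The calcium-binding protein gene CALB2 and the sodium channel gene SCN2A rose by 2.28 and 2.22 on the log2 scale. SAA2, serum amyloid A2, whose reads can be shared with its close copy SAA1, rose by 2.26 and the secreted protein gene CRISPLD2 by 2.20. CCN4, a matricellular protein induced by Wnt signalling, rose by 2.13. The other rises in that set were the mitosis genes CENPF, HMMR, CIT, MKI67 and ASPM, described below.

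The largest falls were deeper than the largest rises. PTGES, the microsomal synthase that makes prostaglandin E2, was at 1.97, 0.844, 0.606 and 1.95 CPM in the day 6 libraries, against 35.6, 39.9, 33.1 and 39.3 CPM in the day 3 libraries (log2 fold change -4.80, SE 0.276, adjusted p = 2.72e-07, edgeR). MMP10, stromelysin 2, was at 1.46, 1.53, 0.727 and 2.15 CPM in the day 6 libraries, against 43.6, 39.1, 22.3 and 29.7 CPM in the day 3 libraries (log2 fold change -4.53, SE 0.431, adjusted p = 2.82e-05, edgeR). SLC7A2, a transporter of cationic amino acids, was at 22.4, 19.3, 9.85 and 23.6 CPM in the day 6 libraries, against 334, 382, 356 and 357 CPM in the day 3 libraries (log2 fold change -4.25, SE 0.2695, adjusted p = 1.87e-06, edgeR). In each of these 3 genes the highest day 6 library was far below the lowest day 3 library. MMP1, interstitial collagenase, fell by 3.25 on the log2 scale. CHRDL1, a secreted antagonist of bone morphogenetic proteins, fell by 2.68, and ANGPTL4, an inhibitor of lipoprotein lipase, fell by 2.60. CEMIP, a hyaluronan-degrading protein, averaged 1131 ± 448 CPM on day 6 and 6133 ± 364 CPM on day 3 (SD, n = 4 each). GCH1, the first enzyme of tetrahydrobiopterin synthesis, fell by 2.42, and RASD1, a small G protein induced by glucocorticoids, by 2.42 as well (adjusted p = 1.08e-09 and 6.39e-12, edgeR). The syntenin family gene SDCBP2 and C11orf96 fell by 2.67 and 2.56.

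The genes with the largest rises in mean CPM were THBS1, ACTB, COL1A1, FN1, COL6A3 and ACTG1. THBS1, thrombospondin 1, averaged 5346 ± 885 CPM on day 6 and 2024 ± 130.5 CPM on day 3 (SD, n = 4 each). ACTB, beta-actin, averaged 4708 ± 323 CPM on day 6 and 2174 ± 89.6 CPM on day 3. COL6A3, a chain of type VI collagen, averaged 3017 ± 362 CPM on day 6 and 1284 ± 161 CPM on day 3. ACTG1, gamma-actin, and FN1, fibronectin, rose by 0.87 and 0.49 on the log2 scale; FN1 was not called with no filter on low counts. The largest falls in CPM were in CXCL8, interleukin 8, with 11932 ± 2510.2 CPM on day 6 against 26104 ± 1672 CPM on day 3. Next came the membrane collagenase MMP14, the stanniocalcin gene STC1, CEMIP, IGFBP5 and the elongation factor EEF2. MMP14 averaged 3994 ± 961 CPM on day 6 and 10779.6 ± 177 CPM on day 3. STC1 averaged 6360.5 ± 1423 CPM on day 6 and 13689 ± 904 CPM on day 3. IGFBP5, which binds insulin-like growth factors, fell by 0.71 on the log2 scale.

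The contractile apparatus rose. In the smooth muscle list 27 of 31 tested genes rose and 2 fell (93.5% called, against 49.9% of all genes). The median log2 fold change was 0.64, against 0.031 over all tested genes. The summed level of the list was 11735 to 12589.9 CPM on day 6 and 7573 to 7838 CPM on day 3. ACTA2, smooth muscle alpha-actin, was at 183, 212, 213 and 206 CPM in the day 6 libraries, against 62.4, 60.9, 60.05 and 70.3 CPM in the day 3 libraries (log2 fold change 1.68, SE 0.123, adjusted p = 6.01e-07, edgeR). The thin filament proteins TAGLN, transgelin, and CNN1, calponin, rose by 1.25 and 1.41 on the log2 scale. MYLK, which encodes the kinase that phosphorylates myosin, was at 58.3, 55.5, 50.1 and 46.7 CPM in the day 6 libraries, against 22.03, 20.2, 18.1 and 24.5 CPM in the day 3 libraries (log2 fold change 1.31, SE 0.0991, adjusted p = 4.06e-08, edgeR). The groups did not overlap for ACTA2, TAGLN, CNN1 or MYLK. FLNA, the actin crosslinker filamin A, averaged 1898 ± 62.8 CPM on day 6 and 842 ± 49.8 CPM on day 3 (SD, n = 4 each), and CAV1, caveolin 1 of the membrane caveolae, 389.9 ± 8.16 CPM on day 6 and 211 ± 10.1 CPM on day 3.

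Myosin and a few partners behaved differently. MYH11, which encodes the myosin heavy chain typical of smooth muscle, stood at 1.43, 1.22, 1.64 and 1.91 CPM in the day 6 libraries, against 1.34, 1.27, 0.984 and 0.70 CPM in the day 3 libraries, with overlap between the days (log2 fold change 0.52, SE 0.211, adjusted p = 0.0459, edgeR). Its call was lost without day 3 replicate 3 or 4 or without day 6 replicate 3 or 4, where the log2 fold change was 0.48, 0.37, 0.50 and 0.41, and also with RLE factors, with DESeq2, with no filter on low counts, with only days 3 and 6 in the fit, and with the replicate number or the letter of the column name as a factor. SMTN, smoothelin, an actin-binding protein of contractile smooth muscle, was at 183, 187, 170.2 and 213 CPM in the day 6 libraries, against 271, 260.3, 250.2 and 249.6 CPM in the day 3 libraries (log2 fold change -0.45, SE 0.0645, adjusted p = 1.1e-05, edgeR), and all day 6 libraries were below all day 3 libraries. CSRP2, a LIM protein of smooth muscle, fell by 0.26 on the log2 scale and was not called with library totals. The largest rise on the list was in KCNMB1, the beta subunit of the calcium-activated potassium channel, by 2.38, and the enteric actin gene ACTG2 rose by 1.51; these genes were chosen after their values were seen.

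Among transcriptional regulators of muscle, 8 of 20 rose and 5 fell (65.0% called, against 49.9% of all genes). MYOCD, myocardin, was at 65.97, 74.1, 77.3 and 70.7 CPM in the day 6 libraries, against 29.1, 33.8, 32.5 and 30.9 CPM in the day 3 libraries (log2 fold change 1.19, SE 0.0768, adjusted p = 1.66e-09, edgeR), with no overlap. SRF rose by 0.24 and the LIM protein gene FHL1 by 0.52 on the log2 scale. KLF4 and KLF5, Krüppel-like factors that act on smooth muscle genes, moved apart, with 1.30 and -0.99. The MADS-box factors MEF2A and MEF2D fell by 0.39 and 0.33.

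Promoter sequences of 3 contractile genes are shown because the CArG box, the site that serum response factor binds, lies in them. They are from the RefSeq promoter table (GRCh38.p14, 250 bases before to 50 bases after a transcription start), 5′ to 3′ on the gene's strand, with the box in capitals.
FLNA, chrX:154374707-154374740, minus strand: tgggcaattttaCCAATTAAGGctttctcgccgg
MYLK, chr3:123620621-123620654, minus strand: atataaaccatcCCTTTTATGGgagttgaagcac
ACTG2, chr2:73892886-73892956, plus strand: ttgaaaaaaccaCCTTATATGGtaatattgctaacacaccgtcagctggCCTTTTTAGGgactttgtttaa
The box was searched for on both strands, and in FLNA it holds the letters CCAAT, which were also searched for as the CCAAT box. Of 27 smooth muscle genes with a promoter window 7 held one (25.9%), against 1.65% of the 11840 tested genes with a window. Such a match is a description of letters and shows no binding.

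Signals that govern contraction moved in both directions. Among 39 genes around the oxytocin receptor, its G protein and calcium, 12 rises and 15 falls were called. The called share was 69.2%, against 49.9% of all genes. The median was -0.029, and it was above 0 under library totals. OXTR, the oxytocin receptor, was at 6.77, 10.8, 9.51 and 8.32 CPM in the day 6 libraries, against 5.52, 5.14, 6.33 and 6.15 CPM in the day 3 libraries (log2 fold change 0.61, SE 0.142, adjusted p = 0.00158, edgeR). The lowest day 6 library was above the highest day 3 library, by a small margin. Phospholipase PLCB1, which cuts the lipid that releases calcium, rose by 0.73 on the log2 scale, and CALM3, calmodulin 3, by 0.56. JPH2, junctophilin 2, which ties the cell membrane to the calcium store, averaged 33.2 ± 5.61 CPM on day 6 and 9.56 ± 0.813 CPM on day 3 (SD, n = 4 each). Among the receptors of the store, ITPR3 fell by 0.58. RGS16, which shortens G protein signals, fell by 1.77, and ECE1, the enzyme that activates endothelin, fell by 0.65. EDNRA and EDNRB, the endothelin receptors, had log2 fold changes of -2.11 and -1.43, both called (adjusted p = 2.24e-06 and 7.85e-06, edgeR), and were chosen after their values were seen.

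Relaxation and small GTPase signalling held 10 rises and 4 falls among 25 genes (56% called, against 49.9% of all genes). PDE4B, which breaks down cyclic AMP, averaged 57.6 ± 2.98 CPM on day 6 and 25.5 ± 1.13 CPM on day 3 (SD, n = 4 each). The myosin phosphatase subunit gene PPP1R12A and the kinase gene ROCK2, whose product phosphorylates that subunit, rose by 0.38 and 0.32 on the log2 scale. The small GTPase genes RND3 and RHOB fell by 0.54 and 0.51. RND1, another of them, had 2, 7, 7 and 3 counts in the day 6 libraries, against 36, 26, 27 and 29 in the day 3 libraries. It passed the filter only through day 3, so no test of it is given, although the 4 falls and the 56% include it.

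Channels and junctions rose in 16 and fell in 7 of 26 cases (88.5% called, against 49.9% of all genes), with a median of 0.31. KCNK2, a stretch-sensitive potassium channel, was at 38.3, 38.3, 40.4 and 34.3 CPM in the day 6 libraries, against 10.7, 10.1, 12.2 and 12.6 CPM in the day 3 libraries (log2 fold change 1.73, SE 0.111, adjusted p = 5.26e-09, edgeR). KCNMA1, the pore of the calcium-activated potassium channel, rose by 0.44 on the log2 scale, and SCN9A, a sodium channel, by 0.95. GJA1, connexin 43, the main gap junction protein of myometrium, was at 471, 388, 283 and 388 CPM in the day 6 libraries, against 504, 463, 529 and 537 CPM in the day 3 libraries (log2 fold change -0.41, SE 0.117, adjusted p = 0.0116, edgeR). Day 6 replicate 1 lay within the range of the day 3 libraries and the other 3 day 6 libraries lay below it. The call was lost with library totals (adjusted p = 0.0956, edgeR) and with no filter on low counts (adjusted p = 0.0678, edgeR). PANX1, pannexin 1, KCNK1 and KCNK6 fell by 0.84, 1.00 and 0.40.

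The prostaglandin list held 5 rises and 6 falls among 22 genes (50% called, against 49.9% of all genes), with a median of -0.015 that was above 0 under library totals. PTGS2, cyclooxygenase 2, was at 1581, 1659.9, 1679 and 2495 CPM in the day 6 libraries, against 3426, 4051, 3631 and 3978 CPM in the day 3 libraries (log2 fold change -1.02, SE 0.196, adjusted p = 0.00145, edgeR). PTGS2 and PTGES act one after the other in making prostaglandin E2 from arachidonic acid, and both messenger RNAs were lower on day 6 with no overlap. PTGER3, the EP3 receptor, was at 1.59, 1.03, 1.76 and 1.48 CPM in the day 6 libraries, against 6.76, 5.76, 5.801 and 8.66 CPM in the day 3 libraries (log2 fold change -2.20, SE 0.203, adjusted p = 2.25e-07, edgeR). PTGER4, the EP4 receptor, was at 12.7, 13.4, 9.63 and 13.5 CPM in the day 6 libraries, against 5.25, 5.33, 5.13 and 5.89 CPM in the day 3 libraries (log2 fold change 1.19, SE 0.109, adjusted p = 5.89e-08, edgeR). The 2 receptors moved apart, and for neither did the days overlap. SLCO2A1, a prostaglandin importer, and ABCC4, an exporter, rose by 2.18 and 0.25 on the log2 scale, where SLCO2A1 averaged 1.43 ± 0.0943 CPM on day 6 and 0.313 ± 0.0657 CPM on day 3. AKR1C2, an aldo-keto reductase, fell by 0.80.

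Genes of steroid receptors and their partners rose in 4 and fell in 3 of 17 cases (41.2% called, against 49.9% of all genes). PGR, the progesterone receptor, was at 3.05, 2.0, 1.58 and 3.42 CPM in the day 6 libraries, against 1.31, 1.69, 1.37 and 1.62 CPM in the day 3 libraries, with overlap (log2 fold change 0.75, SE 0.214, adjusted p = 0.00697, edgeR). ESR1, the oestrogen receptor alpha, averaged 3.004 ± 0.662 CPM on day 6 and 4.28 ± 0.3096 CPM on day 3 (log2 fold change -0.51, SE 0.142, adjusted p = 0.00548, edgeR). NR3C1, the glucocorticoid receptor, fell by 0.26 on the log2 scale. The corepressor gene NCOR1 rose by 0.40 and the coactivator gene NCOA3 fell by 0.19; with library totals ESR1, NR3C1 and NCOA3 were not called.

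**Figure D2:**
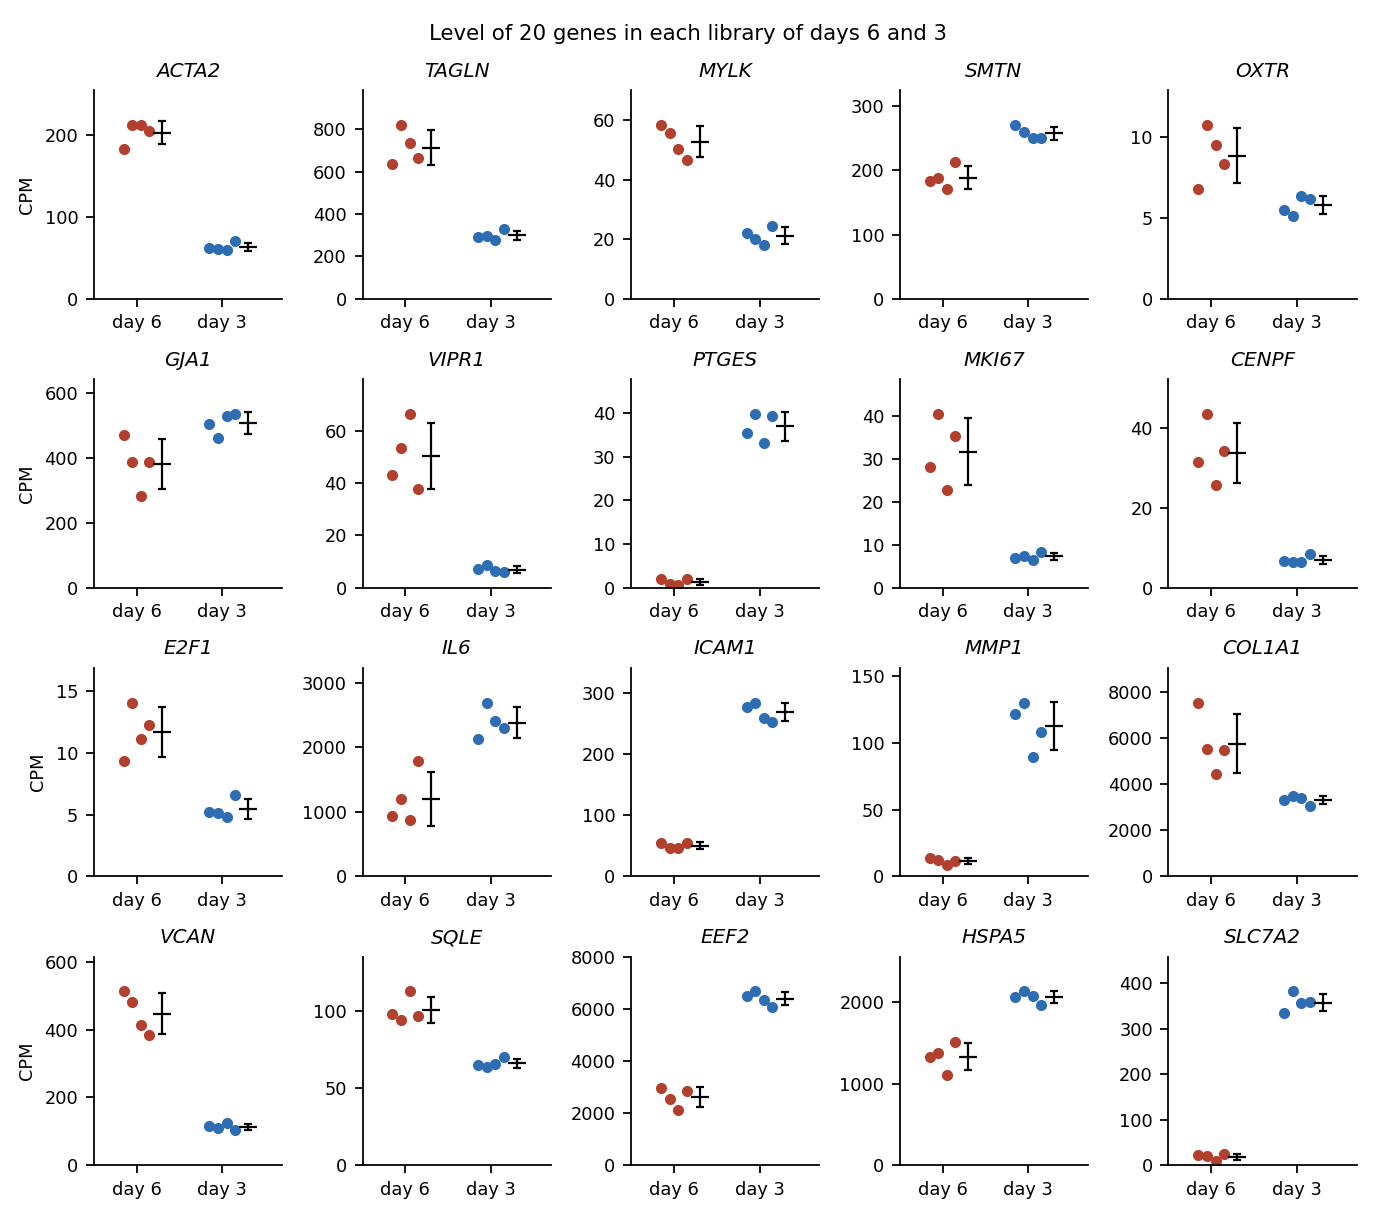
CPM (vertical, each axis from 0) of 20 genes in the 4 day 6 libraries (red, left) and the 4 day 3 libraries (blue, right), with the mean and SD in black. Both days are apart in 19 of the 20 panels, and GJA1 is the panel in which they overlap.

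Cell cycle genes rose together. Of 35 tested mitosis genes 34 rose and none fell (97.1% called, against 49.9% of all genes), with a median log2 fold change of 1.76. The member not called was BUB3, with -0.043, which was called higher with library totals. The summed level of the list was 533 to 838 CPM on day 6 and 252 to 297 CPM on day 3. Day 6 replicates 2 and 4 were the higher day 6 libraries. MKI67, the proliferation marker Ki-67, was at 28.2, 40.6, 22.8 and 35.3 CPM in the day 6 libraries, against 6.99, 7.37, 6.399 and 8.399 CPM in the day 3 libraries (log2 fold change 2.12, SE 0.235, adjusted p = 4.05e-05, edgeR). CENPF, a kinetochore protein, was at 31.4, 43.6, 25.6 and 34.2 CPM in the day 6 libraries, against 6.63, 6.52, 6.43 and 8.47 CPM in the day 3 libraries (log2 fold change 2.27, SE 0.209, adjusted p = 7.22e-06, edgeR). The lowest day 6 library was far above the highest day 3 library for both genes, which the rule for the largest rises required to be apart. HMMR, a spindle protein, rose by 2.23 on the log2 scale, the centromeric histone gene CENPA by 1.94 and the kinetochore gene NDC80 by 1.91. CIT, the citron kinase of cytokinesis, and ASPM, of the spindle pole, rose by 2.15 and 2.12. FOXM1, a transcription factor of mitosis genes, averaged 23.6 ± 3.74 CPM on day 6 and 6.96 ± 0.975 CPM on day 3 (log2 fold change 1.77, SE 0.138, adjusted p = 8.09e-08, edgeR). MYBL2, which encodes the transcription factor B-Myb of dividing cells, rose by 0.85, with overlapping libraries.

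Genes of the G1/S transition and of DNA replication rose in 34 of 39 cases, with no fall (87.2% called, against 49.9% of all genes). The median was 0.78. E2F1, the transcription factor of S phase entry, was at 9.35, 14.1, 11.1 and 12.3 CPM in the day 6 libraries, against 5.25, 5.18, 4.78 and 6.63 CPM in the day 3 libraries (log2 fold change 1.101, SE 0.194, adjusted p = 0.000386, edgeR). UHRF1, which guides DNA methylation after replication, rose by 1.59 on the log2 scale, the replicative helicase subunit gene MCM5 by 1.18 and DNA ligase 1, LIG1, by 0.82. DNMT1, the maintenance DNA methyltransferase, rose by 0.60. Of 19 histone and chromatin protein genes 14 rose and 3 fell (89.5% called, against 49.9% of all genes). RNA was selected by oligo-dT, so histone RNA without a poly(A) tail is poorly covered. H2AC18, H2BC4, H3C2 and H4C15 had at most 13 counts in any of the 8 libraries and were not tested. H2BC21 and the linker histone gene H1-2 rose by 1.51 and 1.42, HMGB1 by 0.78. The replication-independent linker histone gene H1-10 fell by 0.48.

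Genes that halt the cycle were mixed. Of 30 genes of cell cycle arrest and stress response 12 rose and 8 fell (66.7% called, against 49.9% of all genes). CDKN1A, the p21 inhibitor, was at 461, 508, 466 and 526 CPM in the day 6 libraries, against 492, 502, 447 and 477 CPM in the day 3 libraries, with overlap (log2 fold change 0.032, SE 0.0582, adjusted p = 0.67, edgeR). FAS and GADD45A rose by 0.83 and 0.79 on the log2 scale, and CCNG1 and SESN2 fell by 0.49 and 0.44. GDF15, a stress-induced secreted factor, was at 87.9, 66.3, 58.7 and 76.5 CPM in the day 6 libraries, against 274, 250.1, 232 and 266 CPM in the day 3 libraries (log2 fold change -1.82, SE 0.118, adjusted p = 1.11e-07, edgeR). MYC averaged 12.4 ± 3.403 CPM on day 6 and 7.31 ± 0.524 CPM on day 3 (log2 fold change 0.76, SE 0.158, adjusted p = 0.000927, edgeR).

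Promoter stretches of mitosis genes are shown for the cell cycle homology region (CHR, letters TTTGAA, searched on both strands), the element through which mitosis genes are switched in the cycle, in capitals.
HMMR, chr5:163460592-163460627, plus strand: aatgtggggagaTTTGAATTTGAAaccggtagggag
MKI67, chr10:128126435-128126482, minus strand: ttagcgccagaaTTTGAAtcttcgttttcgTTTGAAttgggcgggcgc
NDC80, chr18:2571542-2571571, plus strand: ccggcggagaatTTCAAAttcgaacggctt
CENPA, chr2:26786026-26786055, plus strand: cggagcgagcgaTTTGAAcgcgagcggcgc
Of 29 mitosis genes with a promoter window 23 held these letters (79.3%), against 14.1% of the 11840 tested genes with a window. The CCAAT box, letters CCAAT, was held by 23 of the 29 as well, against 42.8%.

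For G1/S genes the E2F site was searched as TTTGGCGC, TTTCCCGC, TTTGCCGC or TTTCGCGC on both strands, and the matches are in capitals.
UHRF1, chr19:4909475-4909506, plus strand: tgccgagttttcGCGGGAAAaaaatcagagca
E2F1, chr20:33686386-33686430, minus strand: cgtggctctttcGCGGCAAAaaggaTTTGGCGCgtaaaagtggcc
LIG1, chr19:48170439-48170470, minus strand: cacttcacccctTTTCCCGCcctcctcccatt
In this set 18 of 31 genes with a window held a site (58.1%), against 6.36% of the 11840 genes. The G1/S genes held the CHR letters in 1 of 31 cases and the mitosis genes held an E2F site in 2 of 29.

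**Figure D3:**
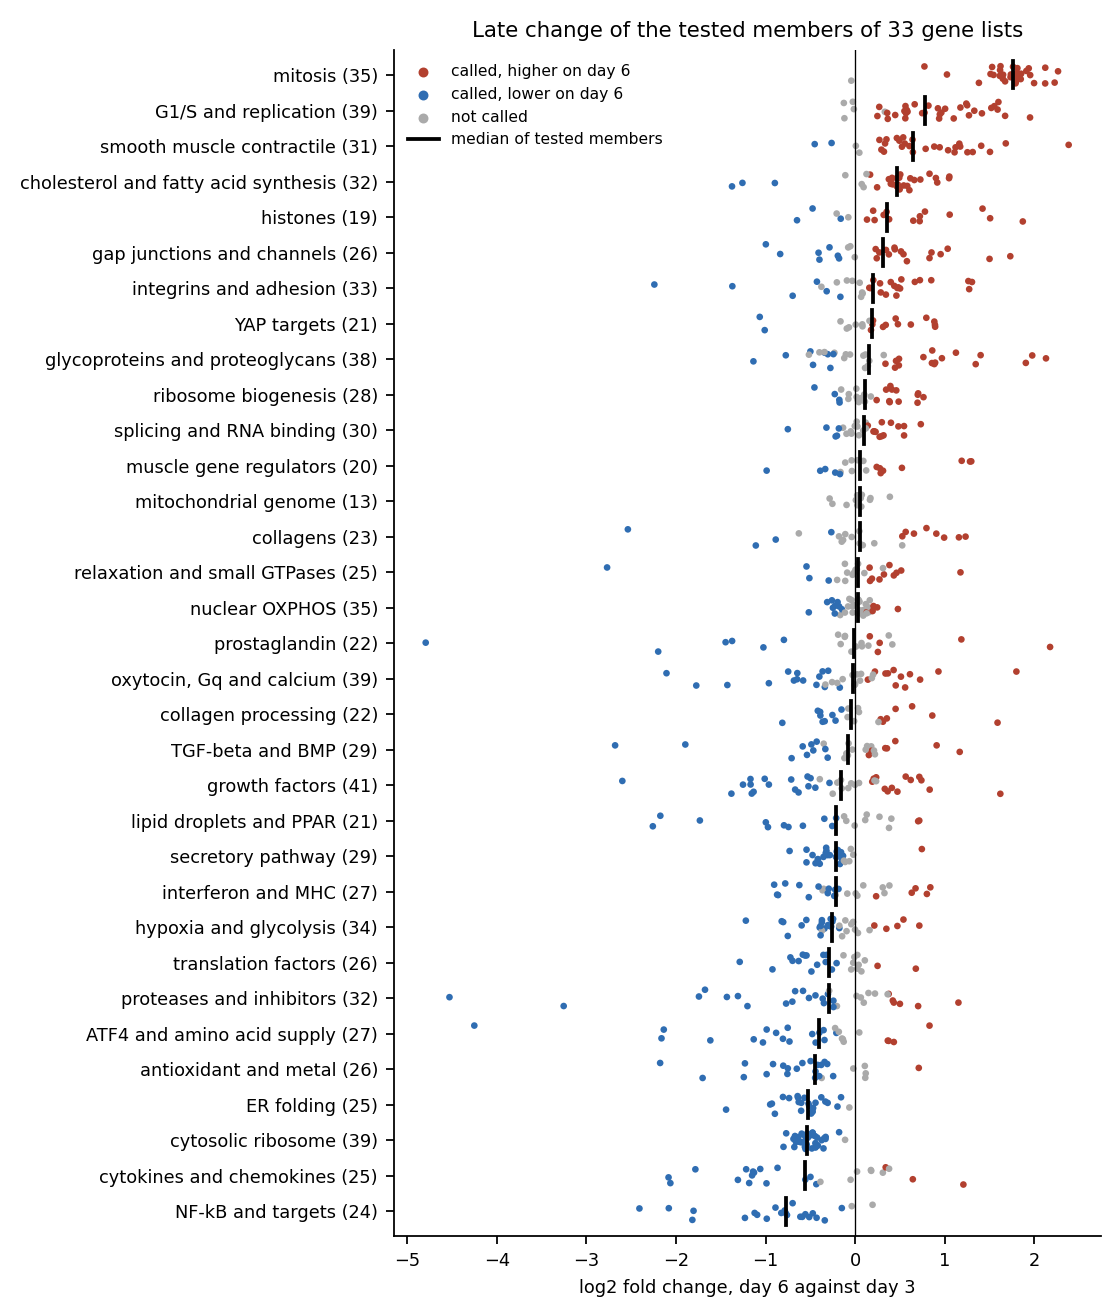
Log2 fold change, day 6 against day 3 (horizontal), of every tested member of 33 gene lists (rows, with the number tested), ordered by the median (black bar). Red points were called higher, blue points lower and grey points were not called; mitosis has the highest median, 1.76, and NF-kB and its targets the lowest, -0.77.

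Inflammatory genes fell. Of 25 cytokines and chemokines 15 fell and 3 rose (72.0% called, against 49.9% of all genes), with a median log2 fold change of -0.56. Their summed level was 27989 to 42782 CPM on day 6 and 60865 to 70507 CPM on day 3. CXCL8, which attracts neutrophils, was at 8844, 13220.3, 11087 and 14576 CPM in the day 6 libraries, against 23692, 27299.7, 26268 and 27157 CPM in the day 3 libraries (log2 fold change -1.13, SE 0.141, adjusted p = 7.08e-06, edgeR). IL1A, interleukin 1 alpha, averaged 15.2 ± 1.32 CPM on day 6 and 52.3 ± 1.65 CPM on day 3 (SD, n = 4 each). IL1B, interleukin 1 beta, averaged 3174 ± 595 CPM on day 6 and 6617 ± 494 CPM on day 3. Both fell, by 1.78 and 1.06 on the log2 scale. IL6 was at 939, 1204, 871 and 1785 CPM in the day 6 libraries, against 2137, 2696, 2408 and 2294 CPM in the day 3 libraries (log2 fold change -0.99, SE 0.207, adjusted p = 0.00286, edgeR). All 4 day 6 libraries were below the day 3 libraries for CXCL8, IL1A, IL1B and IL6. LIF, of the same cytokine family as IL6, was not called, with 1037, 1264, 727 and 1414 CPM in the day 6 libraries, against 1438, 1647, 1389 and 1339 CPM in the day 3 libraries (log2 fold change -0.39, SE 0.178, adjusted p = 0.0969, edgeR).

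The 3 members that rose are CCL7, a monocyte attractant, CSF1, the macrophage growth factor, and CXCL12, with log2 fold changes of 1.21, 0.34 and 0.64. Cytokine receptors rose in 5 and fell in 11 of 23 cases (69.6% called, against 49.9% of all genes). The interferon gamma receptor genes IFNGR1 and IFNGR2 fell by 0.66 and 0.63 and the interleukin 4 receptor gene IL4R by 0.44. TNFRSF21, a death receptor, and IL1RAP, the interleukin 1 receptor partner, rose by 0.44 and 0.33. TLR3, a sensor of double-stranded RNA, had 14, 10, 19 and 23 counts in the day 6 libraries, against 4, 3, 5 and 2 in the day 3 libraries. It passed the filter only through day 6, so no test of it is given, although the 5 rises among the receptors include it.

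NF-kB subunits, its inhibitors and its targets fell in 22 of 24 cases and rose in none (91.7% called, against 49.9% of all genes). The median was -0.77. ICAM1, a leukocyte adhesion molecule, was at 55.2, 45.9, 46.3 and 54.2 CPM in the day 6 libraries, against 276, 284, 258 and 252 CPM in the day 3 libraries (log2 fold change -2.41, SE 0.106, adjusted p = 1.41e-09, edgeR). NFKB1, the p105 subunit, was at 111, 85.2, 89.6 and 126 CPM in the day 6 libraries, against 179, 182, 176 and 169 CPM in the day 3 libraries (log2 fold change -0.78, SE 0.1098, adjusted p = 8.11e-05, edgeR). TNFAIP2 fell by 1.80 and the kinase gene RIPK2 by 1.09 on the log2 scale. The days did not overlap for any of these 4 genes.

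Interferon-response and antigen presentation genes divided. Of 27 genes 5 rose and 12 fell (63.0% called, against 49.9% of all genes). OAS2, OAS3 and IFIT1, antiviral effectors, rose by 0.63, 0.80 and 0.84 on the log2 scale. HLA-E averaged 847 ± 106 CPM on day 6 and 1550.5 ± 60.5 CPM on day 3 (SD, n = 4 each), and the peptide transporter genes TAP1 and TAP2 fell by 0.62 and 0.90.

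Promoter stretches of 3 NF-kB target genes show the NF-kB site in capitals, searched on both strands. IL6 and NFKB1 are described above, and CXCL2, with a log2 fold change of -2.06, was chosen after its value was seen because 2 matches overlap in 1 stretch of its promoter.
NFKB1, chr4:102501298-102501331, plus strand: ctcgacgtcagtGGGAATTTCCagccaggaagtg
IL6, chr7:22727115-22727148, plus strand: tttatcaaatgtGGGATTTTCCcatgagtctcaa
CXCL2, chr4:74099251-74099285, minus strand: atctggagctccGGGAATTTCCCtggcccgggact
Of 20 genes of the NF-kB list with a window 11 held a site (55.0%), as did 9 of 20 cytokine genes (45.0%). Among the 11840 genes the share was 17.0%. The NF-kB list includes targets of NF-kB, so its share is not independent of how the list was made.

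Of 23 collagen genes 8 rose and 4 fell (52.2% called, against 49.9% of all genes). COL1A1, a chain of type I collagen, was at 7552, 5554, 4466 and 5480.3 CPM in the day 6 libraries, against 3318, 3495, 3412 and 3051 CPM in the day 3 libraries (log2 fold change 0.80, SE 0.151, adjusted p = 0.000788, edgeR). COL3A1, the chain of type III collagen, was at 2258, 1906, 1658 and 1928 CPM in the day 6 libraries, against 3547, 3756, 3839.7 and 3190.4 CPM in the day 3 libraries (log2 fold change -0.89, SE 0.0946, adjusted p = 4.54e-07, edgeR). The days did not overlap for either gene, and the changes ran in opposite directions. COL6A3 and COL12A1 rose by 1.23 and 0.99 on the log2 scale and the short chain gene COL10A1 by 0.91. COL15A1 and COL18A1, collagens of basement membrane zones, fell by 2.54 and 1.11. Among enzymes of collagen processing 7 of 22 rose and 9 fell (72.7% called, against 49.9% of all genes). ADAMTS14, a procollagen peptidase, and the lysyl oxidase family genes LOXL3 and LOXL4 rose by 1.59, 0.31 and 0.86. PCOLCE, an enhancer of procollagen cleavage, fell by 0.81 and the hydroxylase genes P3H1 and P4HB by 0.39 and 0.42.

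Glycoproteins and proteoglycans rose in 17 and fell in 8 of 38 cases (65.8% called, against 49.9% of all genes). THBS1 was at 5592, 4263, 5143 and 6384 CPM in the day 6 libraries, against 2095, 1978, 2159.5 and 1864 CPM in the day 3 libraries (log2 fold change 1.40, SE 0.105, adjusted p = 1.15e-08, edgeR). CCN1, a matricellular protein and target of the YAP coactivator, rose by 0.88 on the log2 scale. VCAN, versican, averaged 447 ± 59.96 CPM on day 6 and 114 ± 9.01 CPM on day 3 (log2 fold change 1.98, SE 0.118, adjusted p = 5.04e-08, edgeR) and was chosen after its values were seen. BGN, biglycan, was at 1332, 1029.6, 1044 and 1059 CPM in the day 6 libraries, against 2658, 2471, 2459 and 2224 CPM in the day 3 libraries (log2 fold change -1.14, SE 0.0813, adjusted p = 2.8e-09, edgeR). ELN, tropoelastin, and FBLN2, fibulin 2, fell by 0.77 and 0.34. The days were apart for THBS1, CCN1, VCAN and BGN.

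Most genes of the protease list fell. Of 32 proteases and inhibitors 18 fell and 6 rose, with a median of -0.30. MMP1 was at 13.99, 12.6, 8.66 and 11.9 CPM in the day 6 libraries, against 122, 130.3, 89.4 and 108 CPM in the day 3 libraries (log2 fold change -3.25, SE 0.197, adjusted p = 6.62e-07, edgeR). MMP14 was at 4732, 3761, 2731 and 4751 CPM in the day 6 libraries, against 10905, 10874, 10519 and 10821 CPM in the day 3 libraries (log2 fold change -1.43, SE 0.133, adjusted p = 4.41e-07, edgeR). MMP13, a collagenase, averaged 1.89 ± 0.429 CPM on day 6 and 6.09 ± 1.08 CPM on day 3 (SD, n = 4 each). ADAMTS4, an aggrecanase, averaged 42.8 ± 5.43 CPM on day 6 and 106 ± 9.34 CPM on day 3. TIMP3, an inhibitor of metalloproteinases, rose by 0.43 on the log2 scale, and MMP16 and ADAMTS6 by 0.42 and 0.37.

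Integrins and adhesion genes rose in 19 and fell in 6 of 33 cases (75.8% called, against 49.9% of all genes). ITGA6, a laminin receptor subunit, was at 34.5, 44.8, 35.1 and 36.02 CPM in the day 6 libraries, against 16.7, 12.5, 15.3 and 16.3 CPM in the day 3 libraries (log2 fold change 1.31, SE 0.10, adjusted p = 2.07e-08, edgeR). ITGA2, a collagen receptor subunit, was at 387, 288, 277 and 395 CPM in the day 6 libraries, against 930.5, 796, 886 and 872 CPM in the day 3 libraries (log2 fold change -1.37, SE 0.107, adjusted p = 1.25e-07, edgeR). These 2 subunits went opposite ways, each with no overlap. ITGB8, which activates latent TGF-beta, fell by 2.24 on the log2 scale, and ITGA7, another laminin receptor subunit, by 0.70. CDH6, a cadherin, and PXN, paxillin of focal adhesions, rose by 1.27 and 0.48. Targets of YAP, a coactivator that answers to cell tension, rose in 12 and fell in 2 of 21 cases. The called share was 66.7%, against 49.9% of all genes. AXL, a receptor kinase, and DLC1 rose by 0.48 and 0.89, and F3, tissue factor, and IGFBP3 fell by 1.07 and 1.01. YAP1 rose by 0.18.

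Growth factor genes moved both ways. In the TGF-beta and BMP list 7 of 29 rose and 10 fell, with 58.6% called, against 49.9% of all genes. TGFB1 was not called, with 397 ± 74 CPM on day 6 and 418 ± 23.3 CPM on day 3 (log2 fold change -0.073, SE 0.101, adjusted p = 0.573, edgeR), and its sign turned with library totals. BMP2 was at 27.1, 23.6, 21.1 and 23.1 CPM in the day 6 libraries, against 93.6, 88.9, 80.9 and 90.04 CPM in the day 3 libraries (log2 fold change -1.90, SE 0.07399, adjusted p = 5.34e-12, edgeR). NOG, noggin, and GREM1, gremlin, antagonists of bone morphogenetic proteins, rose by 1.17 and 0.34 on the log2 scale, whereas the antagonist CHRDL1 fell, as given above. The receptor genes TGFBR3 and ACVR1 had 0.36 and -0.47, both called.

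In the list of IGF, EGF, FGF, PDGF and VEGF genes 13 of 41 rose and 17 fell, with 73.2% called, against 49.9% of all genes. AREG, amphiregulin, an EGF receptor ligand, was at 45.5, 39.1, 37.1 and 36.9 CPM in the day 6 libraries, against 97.2, 81.8, 88.1 and 85.9 CPM in the day 3 libraries (log2 fold change -1.15, SE 0.0761, adjusted p = 2.37e-09, edgeR). PDGFRB, a receptor of platelet-derived growth factor, averaged 549 ± 47.3 CPM on day 6 and 1072 ± 38.1 CPM on day 3 (SD, n = 4 each), and its ligand gene PDGFA rose by 0.74 on the log2 scale. FGF1 rose by 0.83 and NRP1, a co-receptor of VEGF, by 0.41. IGFBP7 fell by 0.63.

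Wnt and Notch genes rose in 8 and fell in 9 of 32 cases (53.1% called, against 49.9% of all genes). NKD2, a feedback inhibitor of Wnt signalling, averaged 3.15 ± 0.368 CPM on day 6 and 0.405 ± 0.112 CPM on day 3 (log2 fold change 2.93, SE 0.248, adjusted p = 2e-08, edgeR). The Wnt receptor gene FZD1 rose by 0.67 on the log2 scale, and FZD7 and FZD8 fell by 0.54 and 0.57. Of the Notch ligands, JAG1 rose by 1.15 and DLL1 fell by 1.04. Immediate early and MAPK feedback genes held 6 rises and 11 falls among 33, with 51.5% called, against 49.9% of all genes. EGR2, JUN and KLF6 rose by 1.27, 0.33 and 0.25. The phosphatase gene DUSP1 averaged 63.02 ± 8.55 CPM on day 6 and 126 ± 2.78 CPM on day 3 (SD, n = 4 each), and DUSP14 and the orphan receptor gene NR4A1 fell by 0.53 and 1.16.

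**Figure D4:**
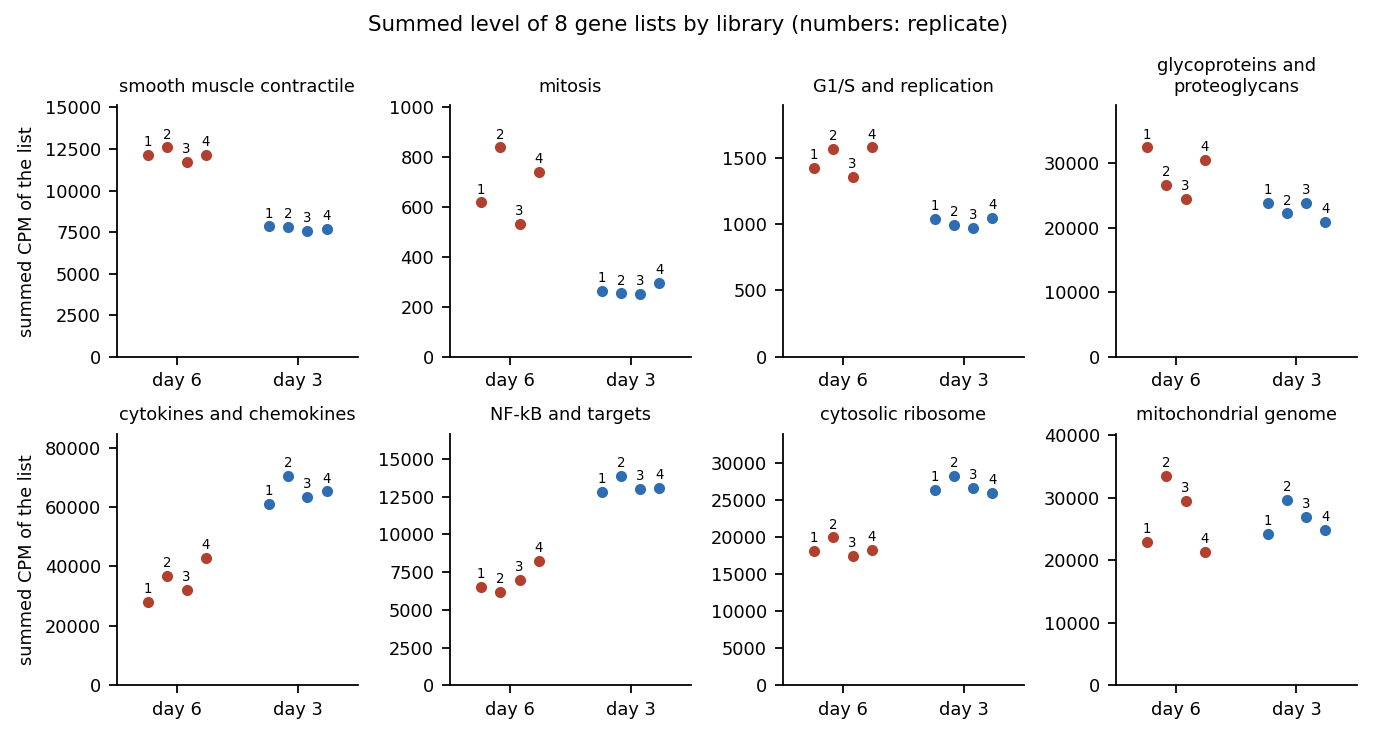
Summed CPM of the members of 8 gene lists (vertical, from 0) in each day 6 library (red, left) and day 3 library (blue, right), with the replicate number above each point. The smooth muscle, mitosis, cytokine, NF-kB and ribosome sums do not overlap between the days, and the mitochondrial genome sums do.

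Genes of the protein synthesis machinery fell. Of 39 cytosolic ribosomal protein genes 38 fell and none rose (97.4% called, against 49.9% of all genes), with a median log2 fold change of -0.53. Their summed level was 17466 to 19917 CPM on day 6 and 25978 to 28241 CPM on day 3. RPS2 was at 484, 505, 432 and 498 CPM in the day 6 libraries, against 830.4, 877, 832 and 802 CPM in the day 3 libraries (log2 fold change -0.80, SE 0.0596, adjusted p = 4.47e-09, edgeR). RPL37 and RPL5 fell by 0.77 and 0.66 on the log2 scale. Ribosomal protein genes have many processed pseudogenes, which can share their reads, so single values are uncertain. Translation factors fell in 15 and rose in 2 of 26 cases (65.4% called, against 49.9% of all genes). EEF2, the translocase of the elongating ribosome, was at 2978, 2554, 2114 and 2849 CPM in the day 6 libraries, against 6512, 6694, 6364 and 6079 CPM in the day 3 libraries (log2 fold change -1.29, SE 0.0904, adjusted p = 2.37e-09, edgeR). EIF4B and EIF3L fell by 0.92 and 0.58. EIF5B rose by 0.25, with overlap. EIF4A1, the other rise, averaged 2.83 ± 0.765 CPM on day 6 and 1.77 ± 0.295 CPM on day 3, a low level for a core initiation factor, and its count is uncertain.

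Ribosome assembly went the other way for part of its genes: 12 of 28 rose and 4 fell (57.1% called, against 49.9% of all genes). The nucleolar factors UTP20, URB2 and TCOF1 rose by 0.76, 0.70 and 0.46 on the log2 scale, and NPM1, nucleophosmin, fell by 0.45. Of 22 tRNA synthetase genes 50% were called: 6 rose, among them FARSB, IARS1 and VARS1 with 0.91, 0.57 and 0.52, and 5 fell, among them QARS1 and CARS1 by 0.43 and 0.27.

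Transcript starts of genes of the translation machinery are shown for the run of pyrimidines that opens them, searched as a C at the start followed by at least 4 further C or T. Each stretch has 10 bases before the start and 20 from it onwards, with the run in capitals, and RPLP0, RPS6 and EEF1A1 were chosen for their sequence after their values were seen, with log2 fold changes of -0.68, -0.48 and -0.70.
RPLP0, chr12:120201092-120201121, minus strand: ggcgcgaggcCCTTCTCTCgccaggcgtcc
RPS6, chr9:19380217-19380246, minus strand: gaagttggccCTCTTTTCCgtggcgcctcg
EEF2, chr19:3985444-3985473, minus strand: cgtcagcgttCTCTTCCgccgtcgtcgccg
EEF1A1, chr6:73521013-73521042, minus strand: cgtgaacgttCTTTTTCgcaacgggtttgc
Such a start was listed for 21 of 31 ribosomal protein genes (67.7%) and 6 of 18 translation factor genes (33.3%), against 7.15% of the 11840 genes.

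Protein folding in the endoplasmic reticulum fell as well. Of 25 genes 24 fell and none rose, with a median of -0.52. DNAJB9, a co-chaperone, was at 95.8, 109, 87.6 and 107 CPM in the day 6 libraries, against 264, 256, 288 and 277 CPM in the day 3 libraries (log2 fold change -1.44, SE 0.0797, adjusted p = 5.32e-10, edgeR). DNAJC3, an inhibitor of the stress kinase PERK, and CANX, the chaperone calnexin, fell by 0.93 and 0.81 on the log2 scale. HSPA5, the chaperone BiP, averaged 1333 ± 168 CPM on day 6 and 2064 ± 72.7 CPM on day 3 (log2 fold change -0.63, SE 0.0883, adjusted p = 1.01e-05, edgeR) and was chosen after its values were seen. The secretory pathway fell in 23 and rose in 1 of 29 cases (82.8% called, against 49.9% of all genes). TMED2 and TMED10, cargo receptors between the reticulum and the Golgi, fell by 0.54 each and STX5 by 0.41. The exception was CREB3L1, a transcription factor of secretory cells, which rose by 0.75. Heat shock and related chaperone genes held 3 rises and 7 falls among 20 (50% called, against 49.9% of all genes). The small heat shock genes HSPB1 and HSPB6 rose by 0.53 and 0.87, and HSPA8, ST13 and DNAJA1 fell by 0.34, 0.74 and 0.32.

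Both promoters below hold the endoplasmic reticulum stress element, searched on both strands, which contains the CCAAT box; it is in capitals. The calnexin stretch lies near 3 listed starts of the gene.
CANX, chr5:179698766-179698808, plus strand: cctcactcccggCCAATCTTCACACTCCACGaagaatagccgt
HSPA5, chr9:125241379-125241421, minus strand: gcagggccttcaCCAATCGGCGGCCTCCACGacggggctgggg
The element was found in 7 of 23 genes of the list with a window (30.4%), against 16 of 11840 genes (0.135%).

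Most genes of amino acid supply fell. In the ATF4 and amino acid list 17 of 27 fell and 4 rose (77.8% called, against 49.9% of all genes). ATF4, the transcription factor of amino acid shortage, was at 284, 337, 318 and 319 CPM in the day 6 libraries, against 618, 663, 611 and 606 CPM in the day 3 libraries (log2 fold change -0.99, SE 0.0711, adjusted p = 2.94e-09, edgeR). SLC7A11, the cystine importer, was at 10.6, 7.31, 9.51 and 9.36 CPM in the day 6 libraries, against 39.9, 40.5, 43.5 and 41.04 CPM in the day 3 libraries (log2 fold change -2.16, SE 0.0877, adjusted p = 5.34e-12, edgeR), and its partner gene SLC3A2 fell by 1.13 on the log2 scale. The groups were apart for ATF4 and SLC7A11. STC2, stanniocalcin 2, rose by 0.83, and the serine synthesis genes PSPH and PHGDH by 0.37 and 0.43. Antioxidant and metal genes fell in 20 and rose in 1 of 26 cases (80.8% called, against 49.9% of all genes), with a median of -0.44. SLC39A14, a zinc and iron importer, averaged 202 ± 30.2 CPM on day 6 and 916 ± 36.1 CPM on day 3 (SD, n = 4 each). HMOX1, haem oxygenase 1, fell by 1.24, TXNRD1, thioredoxin reductase, by 0.80, and GPX3, a secreted peroxidase, rose by 0.71.

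Metabolic genes split by pathway. Cholesterol and fatty acid genes rose in 25 and fell in 3 of 32 cases (87.5% called, against 49.9% of all genes), with a median of 0.47. Day 6 replicate 3 was the highest day 6 library for 25 of the 32, and the list summed to 3398, 3146, 3916 and 3515.5 CPM in day 6 replicates 1 to 4, against 2739 to 3034 CPM on day 3; without that library 24 rose and 2 fell, with a median of 0.40. SQLE, a rate-limiting enzyme of sterol synthesis, was at 97.8, 94.04, 112 and 96.8 CPM in the day 6 libraries, against 64.8, 63.4, 65.6 and 69.8 CPM in the day 3 libraries (log2 fold change 0.61, SE 0.0676, adjusted p = 5.95e-07, edgeR). FADS2, a fatty acid desaturase, and ACACA, acetyl-CoA carboxylase, rose by 0.73 and 0.40 on the log2 scale, and SREBF2, the transcription factor of the pathway, by 0.17, with overlap; that call was lost without day 3 replicate 1 or 3 or day 6 replicate 3, where the value was 0.15, 0.15 and 0.12. LSS, lanosterol synthase, was at 144, 170.3, 202 and 188 CPM in the day 6 libraries, against 315, 369, 304 and 322 CPM in the day 3 libraries (log2 fold change -0.90, SE 0.09798, adjusted p = 3.63e-06, edgeR). LSS fell with no overlap, and the other 2 that fell, ABCA1 and ABCG1, export cholesterol from cells, with -1.37 and -1.26. ABCG1 had 24 counts in day 6 replicate 1 and no more than 7 in the other 3 day 6 libraries; without that library its log2 fold change was -2.15, and without day 3 replicates 1 or 4 or day 6 replicates 2, 3 or 4 the call was lost, at -1.15, -1.14, -1.03, -1.10 and -1.02. Lipid droplet and PPAR genes fell in 11 and rose in 2 of 21 cases (61.9% called, against 49.9% of all genes). G0S2, an inhibitor of lipid breakdown, averaged 67.8 ± 9.47 CPM on day 6 and 226 ± 5.003 CPM on day 3 (SD, n = 4 each), CPT1A and ACADVL, of fatty acid oxidation, fell by 0.79 and 1.00, and FABP4 and FABP5 rose by 0.72 and 0.70.

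Hypoxia and glycolysis genes fell in 19 and rose in 5 of 34 cases (70.6% called, against 49.9% of all genes). HIF1A was not called, with 713 ± 70.5 CPM on day 6 and 638 ± 36 CPM on day 3 (log2 fold change 0.16, SE 0.0731, adjusted p = 0.0745, edgeR). CA12, a carbonic anhydrase, and PDK1, which slows pyruvate entry into mitochondria, fell by 0.82 and 0.75 on the log2 scale. GAPDH averaged 1920.1 ± 119 CPM on day 6 and 2802 ± 89.3 CPM on day 3, so it was not constant between the days. VEGFA, vascular endothelial growth factor, was at 769, 1073, 808 and 857 CPM in the day 6 libraries, against 587, 516, 516 and 515 CPM in the day 3 libraries (log2 fold change 0.72, SE 0.107, adjusted p = 6.85e-05, edgeR), with EPAS1 and PFKP also higher, by 0.54 and 0.47. Nuclear genes of oxidative phosphorylation held 5 rises and 9 falls among 35 (40% called, against 49.9% of all genes), between a fall of COX4I1 by 0.52 and a rise of NDUFB3 by 0.48 on the log2 scale. Of the 13 genes of the mitochondrial genome none was called by edgeR, with summed levels of 21302 to 33489 CPM on day 6 and 24189 to 29658 CPM on day 3.

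Lysosome and proteasome genes fell in 17 and rose in 3 of 33 cases (60.6% called, against 49.9% of all genes). HEXA, a lysosomal hexosaminidase, LAMP2 and the autophagy receptor gene SQSTM1 fell by 0.63, 0.51 and 0.56 on the log2 scale, and CTSZ, cathepsin Z, rose by 0.29. The median of that list, and that of the chromatin regulators, was above 0 with library totals. Splicing and RNA-binding genes rose in 13 and fell in 5 of 30 cases (60% called, against 49.9% of all genes). SRSF7 had 0.73 and SRSF5 -0.75. Among chromatin regulators 16 of 34 fell and 7 rose (67.6% called, against 49.9% of all genes). HDAC5 and HDAC7 fell by 0.41 and 0.32, and SMARCA4 rose by 0.33.

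Noncoding RNA genes of at least 5 CPM gave their own extremes. An unnamed gene on chromosome 15 (ENSG00000304767, 80780142 to 80782033 in the coordinates of the deposited table) was at 2.86, 2.38, 3.696 and 3.02 CPM in the day 6 libraries, against 17.2, 16.04, 17.2 and 18.9 CPM in the day 3 libraries (log2 fold change -2.53, SE 0.107, adjusted p = 5.83e-12, edgeR). MIR22HG and SNHG7, hosts of a microRNA and of small nucleolar RNAs, fell by 1.21 and 1.31 on the log2 scale, GAS5 and SNHG6, further hosts of small nucleolar RNAs, by 0.86 and 0.68, and LINC03009 by 1.48. MIR503HG and CARMN, a long noncoding RNA of smooth muscle, rose by 0.98 and 0.81, CARMN with overlap. LINC02984 rose by 1.46, and an unnamed gene on chromosome 2 (ENSG00000222032, 237421420 to 237434906) by 1.27. THBS1-IT1 and SLC9A3-AS1 rose by 1.60 and 1.35, but the strand setting of the counting is not given in the sources used here, so their reads cannot be told from those of the genes they overlap.

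The late step differed from the step before it for many genes. The difference between the late change (day 6 against day 3) and the early change (day 3 against day 1) was called for 6423 of 18245 genes (35.2%), higher in the late step for 3197 and lower for 3226, or 5748 and 1684 with library totals. Both changes share the day 3 libraries, so a chance deviation on day 3 enters them with opposite sign. VIPR1, SLC7A2, PTGES, CENPF, CALB2 and MMP1 were named for large late changes, and ITGA2 for a small adjusted p of its late change. The difference contains the late change, so the p-values of these genes for the difference are not independent of the choice. VIPR1 averaged 40.3 ± 15.9 CPM on day 1 (n = 3), 6.92 ± 1.23 CPM on day 3 and 50.2 ± 12.6 CPM on day 6, with log2 fold changes of 2.86 in the late step and -2.54 in the early step (adjusted p = 0.0001 for the difference, edgeR). SLC7A2 averaged 84.5 ± 19.5, 357 ± 19.6 and 18.8 ± 6.23 CPM on days 1, 3 and 6, with -4.25 in the late and 2.08 in the early step (adjusted p = 6.82e-06 for the difference, edgeR). These 2 genes turned round on day 3. PTGES went the same way as SLC7A2, with -4.80 in the late and 1.53 in the early step.

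Other genes moved mainly in the late step. CENPF averaged 5.69 ± 1.86, 7.01 ± 0.976 and 33.7 ± 7.49 CPM on days 1, 3 and 6, with 2.27 in the late and 0.30 in the early step (adjusted p = 0.00358 for the difference, edgeR). CALB2 had 2.28 in the late and 0.023 in the early step (adjusted p = 2.93e-06 for the difference, edgeR), and ITGA2 -1.37 and -0.018 (adjusted p = 6.38e-05). ACTA2 rose in both steps, by 1.68 in the late and 0.61 in the early step (adjusted p = 0.0031 for the difference, edgeR). MMP1 averaged 179 ± 38.7, 112 ± 17.9 and 11.8 ± 2.25 CPM on days 1, 3 and 6, with -3.25 in the late and -0.67 in the early step (adjusted p = 0.000171 for the difference, edgeR). For OXTR, COL1A1, FN1 and MYC the difference between the steps was not called, with late changes of 0.61, 0.80, 0.49 and 0.76 beside early changes of 0.035, 0.23, 0.30 and 0.39 (adjusted p = 0.0943, 0.124, 0.52 and 0.353 for the difference, edgeR).

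Some genes returned on day 6 to near the level of day 1. COL3A1 averaged 1957 ± 254, 3583 ± 289 and 1937 ± 246 CPM on days 1, 3 and 6, and AREG 39.2 ± 4.18, 88.3 ± 6.51 and 39.6 ± 4.02 CPM. CCN1 averaged 625 ± 31.2, 342 ± 26.8 and 631 ± 79.7 CPM, the opposite shape. The 3 genes were picked for this shape, which by itself makes the late and early changes differ. Day 6 was not tested against day 1.

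**Figure D5:**
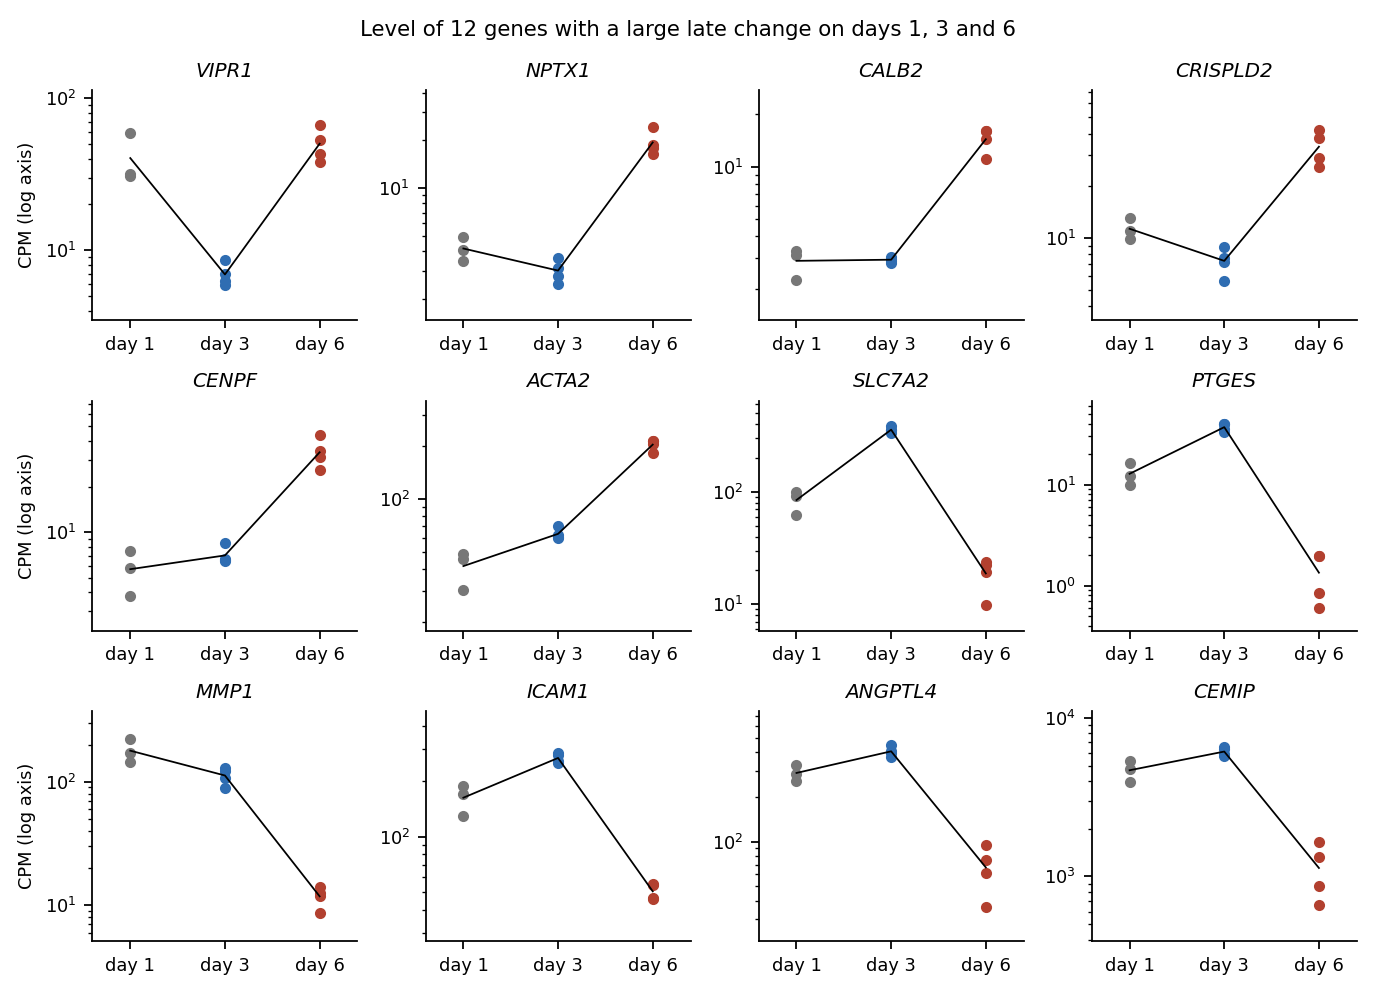
CPM (vertical, log axis) of 12 genes with a large late change in every library of day 1 (grey, n = 3), day 3 (blue, n = 4) and day 6 (red, n = 4), with lines through the day means. VIPR1 is lowest and SLC7A2 and PTGES are highest on day 3, whereas CALB2 and CENPF differ mainly between days 3 and 6.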

How the data were processed

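RNA was selected by oligo-dT and converted with random hexamers, per the labels. The deposited table holds raw counts per gene made by the authors from their reads; per the submitters' processing notes, GRCh38, DRAGEN, STAR 2.7.11b, Subread, featureCounts 2.0.8 and Salmon 1.10.0 were used, without roles, and the annotation release, the strand setting and the treatment of reads that fit several genes are not given in the sources used here. Of 79031 rows, 99 named no human gene and were left out (at most 6.79e-06% of a library). All 11 libraries, of 28.07 to 33.02 M counts, were fitted together in R 4.3.3 with edgeR 4.0.16 (filterByExpr by day with a minimum count of 10, TMM factors, robust quasi-likelihood test), and p-values were adjusted over 18245 genes by Benjamini-Hochberg, with a threshold of 0.05. Library measures were tested by exact permutation (scipy 1.17.1). On counts simulated for this comparison over 17900 genes, 200 of them changed, the share found was 61.9% at a 1.5-fold change and 71.9% at a 2-fold change, and 5.15% of the calls were false. In the data 9102 of 18245 genes were called, and the share of false calls with that many genes changed was not tested. Groups come from the day in the labels. Alternatives were RLE factors, library totals, DESeq2 1.42.0, other filters, a threshold on the fold change, an 8-library fit, 2 blocking factors, thinning and leaving out each library.

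Earlier results of these data were known when the comparison, its gene lists and the choice of named genes were set. Named were the 12 largest rises and falls in log2 fold change of called protein-coding genes that averaged 5 CPM or more without overlap, the 6 largest in mean CPM, and the 4 largest among long noncoding RNAs. Added were, for each list, the 3 rising and 3 falling members with the smallest adjusted p, called members on a side of at most 3, and a fixed set of myometrial and regulatory genes; a few genes that the rule names are not reported here, and exceptions are said to have been chosen after their values were seen. Promoter letters come from RefSeq (GRCh38.p14), for the 11840 tested genes with a window. A gene counted as holding a motif if any of its listed windows held it. The lists were made by function, so the share of a motif tied to that function is not independent of the choice. Counting error only is covered by the limit of 3 counts.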

Additional observations from a re-analysis of the deposited data

Results flagged for a closer look

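In the 2 groups of 4 libraries, 574 sets of values of the named genes and the library measures were examined. In 30 of them (5.23%), all of named genes, 1 library was apart from the other 3 by Dixon's test at the 95% level. Chance gives about 1 in 20. The values are in CPM, and no explanation was tested. Day 6 replicate 1 was high for ABCG1 (0.763, against 0.134 to 0.212 in the other 3), BGN (1332, against 1029.6 to 1059 in the other 3) and MMP16 (43.05, against 35.2 to 35.5 in the other 3). For day 6 replicate 2 the level was high in ITGA6 (44.8, against 34.5 to 36.02 in the other 3). The level of day 6 replicate 2 was low for DNAJA1 (285, against 298 to 299 in the other 3) and IGFBP5 (5298, against 6665 to 6765 in the other 3). A high level was found in day 6 replicate 3 for GPX3 (257, against 174 to 183 in the other 3). Day 6 replicate 3 was low for EEF1A1 (3891, against 4994 to 5075 in the other 3), GREM1 (1339, against 1551 to 1584 in the other 3) and JAG1 (9.33, against 11.9 to 12.4 in the other 3). For day 6 replicate 3 the level was low in KCNK6 (15.9, against 21.8 to 22.1 in the other 3) and PXN (94.3, against 99.5 to 100.2 in the other 3). The level of day 6 replicate 4 was high for FHL1 (83.5, against 72.9 to 73.98 in the other 3), PTGS2 (2495, against 1581 to 1679 in the other 3) and TGFBR3 (16.2, against 13.4 to 13.8 in the other 3). A low level was found in day 6 replicate 4 for CCN4 (7.08, against 10.05 to 10.4 in the other 3), COL10A1 (8.28, against 11.2 to 11.8 in the other 3) and PDE4B (53.1, against 58.6 to 59.5 in the other 3). Day 3 replicate 1 was high for VEGFA (587, against 515 to 516 in the other 3). For day 3 replicate 1 the level was low in CNN1 (18.7, against 22.01 to 22.4 in the other 3). The level of day 3 replicate 2 was high for CCN1 (382, against 328 to 329 in the other 3), HLA-E (1640.3, against 1509 to 1528 in the other 3) and RPS6 (1002, against 948 to 954 in the other 3). A high level was found in day 3 replicate 2 for SRF (109, against 97.6 to 98.7 in the other 3) and STX5 (110.0, against 100.5 to 102 in the other 3). Day 3 replicate 2 was low for YAP1 (129.8, against 145 to 146 in the other 3). For day 3 replicate 3 the level was low in FZD8 (35.7, against 41.5 to 42.2 in the other 3). The level of day 3 replicate 4 was high for CENPF (8.47, against 6.43 to 6.63 in the other 3), HMMR (2.47, against 1.496 to 1.599 in the other 3) and MIR22HG (74.6, against 70.4 to 70.98 in the other 3).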

How the results depend on the processing

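Of 284 tested genes named in the text 279 were called, among them TLR3, for which no test is given above. Of the called genes, 276 kept their call in each fit without 1 of the 8 libraries that tested them. TLR3 did not pass the filter without day 6 replicate 1, 3 or 4. The other 3 called genes are MYH11, ABCG1 and SREBF2. Library totals ended the calls of CARS1, CSRP2, ESR1, GJA1, NCOA3 and NR3C1, and the letter of the column name as a factor those of ABCC4, MYBL2, MYH11 and YAP1; with no filter on low counts FN1, GJA1 and MYH11 lost theirs. A minimum log2 fold change of 1 left 403 calls for the late step, 242 higher and 161 lower, and 382 for the late minus the early step, 176 higher and 206 lower; fewer follow from the stricter hypothesis. With library totals the late step gave 7885 higher and 2239 lower genes, and the late minus the early step 5748 and 1684. Leaving out 1 library gave 8174 to 8723 calls (4318 to 4602 higher, 3853 to 4121 lower) and, for late minus early, 5283 to 6644 (2588 to 3352 higher, 2653 to 3292 lower). Day 6 minus day 3 was then 0.156 to 0.611 points for the mitochondrial share, -2.77 to -2.52 points for the top 10 genes and 121.6 to 143.9 for genes at 1 CPM. Genes that were not called turned sign as follows, and the cause was not tested: BUB3 had 0.14 and TGFB1 0.11 with library totals, TGFB1 ranged over -0.17 to 0.0081 and CDKN1A over -0.0015 to 0.064 without 1 library. The median of 11 of 53 lists changed sign with library totals, and of 2 with DESeq2. With the replicate block 9162 genes were called (4826 higher, 4336 lower), and among the named genes only MYH11 lost its call. The letter of the column name as a factor gave fewer calls, 7717 (4082 higher, 3635 lower). Same-numbered day 6 and day 3 libraries deviated together with correlations of 0.0189, 0.0155, 0.0725 and 0.0272. Pairs with unlike numbers had -0.0773 to 0.0369. Pairs that share the column letter B, C or D had -0.00483, 0.0178 and -0.0773. Day 6 replicates 2 and 3 correlated best with the day 3 library of their own number. Day 6 replicates 1 and 4 correlated best with day 3 replicates 4 and 2 (0.0369 and 0.0322). The labels state no pairing, and the numbers were not taken to pair the libraries.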

Other observations

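Clock, developmental and telomere genes were also measured, and 49.9% of all tested genes were called. Of 18 clock genes 5 rose and 6 fell (61.1% called): the repressor gene BHLHE41 was at 26.4, 18.4, 18.03 and 24.9 CPM in the day 6 libraries, against 13.1, 11.4, 11.95 and 12.05 CPM in the day 3 libraries (log2 fold change 0.85, SE 0.115, adjusted p = 1.41e-05, edgeR), with no overlap, and the repressor genes NFIL3 and CRY1 fell by 0.70 and 0.52 on the log2 scale. Of 35 HOX and other developmental factors 9 rose and 6 fell (42.9% called). TWIST1, a mesenchymal factor, was at 57.6, 54.2, 43.7 and 62.8 CPM in the day 6 libraries, against 144, 147, 135 and 134 CPM in the day 3 libraries (log2 fold change -1.36, SE 0.0997, adjusted p = 1.22e-07, edgeR), and all day 6 libraries were below all day 3 libraries. NR2F2 rose by 0.59, and PRRX1 and MEIS1 fell by 0.61 and 0.45. Of 12 telomerase and telomere genes 5 rose and 1 fell (50% called), and POT1, a telomere-binding protein gene, rose by 0.43.

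Of 12 markers of uterine stroma and fibroblasts 3 rose and 4 fell (58.3% called, against 49.9% of all genes). Their summed level was lower on day 6 with no overlap. THY1, a surface protein of fibroblasts and other stromal cells, was at 147, 158, 174 and 132 CPM in the day 6 libraries, against 68.2, 75.4, 74.4 and 71.7 CPM in the day 3 libraries (log2 fold change 1.08, SE 0.0889, adjusted p = 1.51e-07, edgeR), and PDGFRA, another stromal marker, fell by 0.50 on the log2 scale. KRT7 rose by 1.48 and KRT8 fell by 0.92, while the summed epithelial markers were lower on day 6 in every library; their part in any result was not tested. S100A8, a leukocyte alarmin, averaged 1.97 ± 1.65 CPM on day 6 and 0.173 ± 0.1101 CPM on day 3 (log2 fold change 3.52, SE 0.745, adjusted p = 0.00271, edgeR). Its day 3 mean is near the level of 3 counts, 0.0909 to 0.115 CPM, and its day 6 SD is almost as large as the mean. The size of its change is therefore uncertain, and only 3 of the 15 leukocyte markers passed the filter.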
